A study of Saccharomyces cerevisiae with 12 samples.

Results

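The upper part of glycolysis is the run of enzymes that turns glucose or fructose into triose phosphates, and in Saccharomyces cerevisiae it is covered here by 9 genes. The members were chosen by function from textbook knowledge, with earlier results of these data known. They comprise the hexose kinases HXK1 (YFR053C), HXK2 (YGL253W), GLK1 (YCL040W) and EMI2 (YDR516C) and the isomerase PGI1 (YBR196C). Further members are the phosphofructokinase subunits PFK1 (YGR240C) and PFK2 (YMR205C), the aldolase FBA1 (YKL060C) and the triose phosphate isomerase TPI1 (YDR050C). The members are 9 of the 6256 genes with a probe on the arrays. Each has 1 probe, and all 9 were detected on all 12 arrays and tested among 6083 genes.

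Glucose entering a yeast cell is phosphorylated by a hexokinase or by glucokinase, isomerised to fructose phosphate, phosphorylated again by phosphofructokinase and cleaved by aldolase into dihydroxyacetone phosphate and glyceraldehyde phosphate, which TPI1 interconverts. HXK2 is the main hexokinase of growing yeast on glucose and also takes part in glucose repression, while HXK1 and GLK1 are known as the forms that are made when glucose is scarce. Xylose enters lower down, through the pentose phosphate pathway, whose products are fructose phosphate and glyceraldehyde phosphate, so a xylose-fermenting yeast can use PGI1 in the reverse direction and does not need a hexokinase for xylose itself.

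The 12 samples came from 3 strains built on the xylose-fermenting yeast MT8-1X, each kept for 6 h with 70 mM furfural or without it (0 mM). Furfural is an aldehyde of plant hydrolysates that slows fermentation. The 6 groups were the strain co-expressing TAL and ADH (TAL-ADH) at 70 and 0 mM, the strain expressing TAL at 70 and 0 mM, and the control strain at 70 and 0 mM, with 2 runs each. The introduced genes are not spelled out in the labels, and promoters, vectors and medium are not given in the sources used here. Whether the 2 runs of a group were grown separately is not stated, and the p-values measure only how far the runs differ, a spread that may be technical.

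Every level below is a log2 value for 1 gene relative to the 75th percentile of all gene probes on the same array, and a difference of 1 is a doubling of signal. Levels can be compared between arrays for 1 gene but not between genes, because each probe has its own brightness. Each member was read by 7 spots on every array, all of the 756 spots were well above background, none was saturated, and 11 were left out as marked outliers. The probe sequences were not used here, and how much signal related genes such as HXK1 and HXK2, or GLK1 and EMI2, share on these probes was not tested.

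The arrays did not sort by strain or by furfural alone. Along the first principal component, with 61.5% of the variance of all genes, TAL at both doses and the control strain at 70 mM lay at 31.6 to 54.9, while TAL-ADH at both doses and the control strain at 0 mM lay at -47.0 to -39.1. TAL at 0 mM thus lay with the furfural-treated control, and TAL-ADH at 70 mM with the untreated control, and groups are named by their labels throughout. TAL1, the yeast transaldolase gene, averaged 4.02 ± 0.62 and 3.81 ± 0.22 (SD, n = 2) in TAL-ADH at 70 and 0 mM and 2.82 ± 0.07 and 3.71 ± 0.38 in TAL, against 0.71 ± 0.24 and 2.58 ± 0.33 in the control strain. The arrays lay on 3 slides of 4: TAL-ADH at 70 mM with the control strain at 0 mM, TAL with TAL-ADH at 0 mM, and TAL with the control strain at 70 mM. Of the pairs of groups compared below, TAL-ADH against TAL at 0 mM and TAL against control at 70 mM lie within a slide. In the others the effect of the slide cannot be told apart from that of the group.

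Across the 6 groups, 7 of the 9 genes had their highest mean in the control strain without furfural and 8 had their lowest mean in a TAL group. The span between the highest and the lowest group mean ran from 1.03 for PFK1 to 3.01 for HXK2. When the 6 means of a gene were put in order, 18 of the 45 neighbouring pairs of groups were apart on every array and 27 overlapped. Such counts of highest, lowest and neighbouring groups were not made over all genes, so they only describe the 9 members. The same holds for statements below that a group lay above or below every other array. For 4 genes (HXK1, PGI1, PFK1 and FBA1) the 4 TAL arrays lay below all 8 arrays of the other strains. That holds for 3.96% of all 6083 genes, and this split was chosen after the values were seen.

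**Figure D1:**
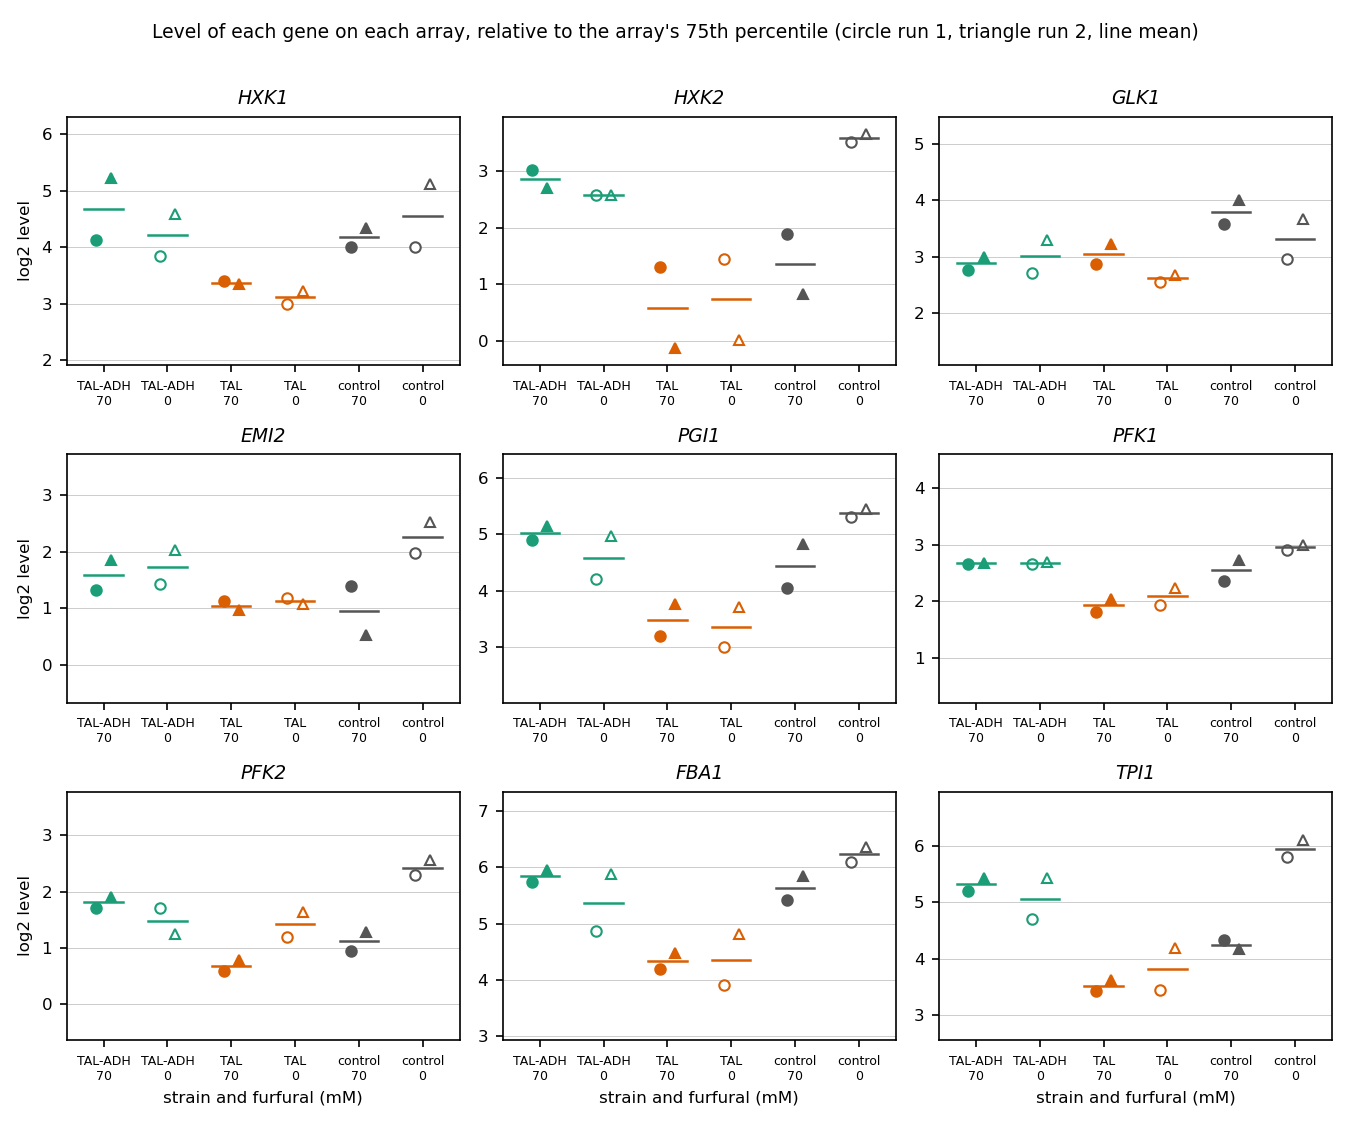
Log2 level of each of the 9 genes on each array relative to that array's 75th percentile (y axis), by strain and furfural dose in mM (x axis), with circles for run 1, triangles for run 2, filled symbols for 70 mM, open symbols for 0 mM and lines for group means. All panels span the same number of log2 units; TAL arrays are low for HXK1, PGI1, PFK1 and FBA1, and HXK2 runs from -0.13 to 3.67.

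HXK1 encodes the hexokinase that glucose represses. Its levels in runs 1 and 2 were 4.13 and 5.22 in TAL-ADH at 70 mM and 3.84 and 4.60 in TAL-ADH at 0 mM. TAL arrays read 3.39 and 3.34 at 70 mM and 3.00 and 3.22 at 0 mM, and control arrays 4.01 and 4.34 at 70 mM and 4.01 and 5.12 at 0 mM. The TAL strain was thus low at both doses, with no overlap with the other strains, while the 4 TAL-ADH and control groups overlapped one another in order. HXK1 was the only member whose highest mean was in TAL-ADH at 70 mM.

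HXK2, the hexokinase that predominates on glucose, varied most of the 9. TAL-ADH arrays read 3.02 and 2.71 at 70 mM and 2.58 and 2.59 at 0 mM. In the TAL strain the levels were 1.30 and -0.13 at 70 mM and 1.45 and 0.02 at 0 mM, and in the control strain 1.89 and 0.84 at 70 mM and 3.53 and 3.67 at 0 mM. Control at 0 mM was above TAL-ADH at 70 mM, TAL-ADH at 70 mM above TAL-ADH at 0 mM, and TAL-ADH at 0 mM above control at 70 mM on every array, and below that control at 70 mM and both TAL groups overlapped. The runs of those 3 low groups were far apart: run 2 minus run 1 was -1.43 in TAL at each dose and -1.06 in control at 70 mM, against -0.31, 0.01 and 0.14 in the other groups.

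GLK1 encodes glucokinase, which phosphorylates glucose but not fructose. Its levels were 2.76 and 3.00 in TAL-ADH at 70 mM, 2.72 and 3.31 in TAL-ADH at 0 mM, 2.87 and 3.23 in TAL at 70 mM and 2.56 and 2.68 in TAL at 0 mM. Control arrays read 3.58 and 4.002 at 70 mM and 2.96 and 3.67 at 0 mM. GLK1 was the only member highest in the control strain with furfural, and 4 of its 5 neighbouring pairs of groups overlapped.

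EMI2 encodes a close relative of glucokinase that was first named for a role in early meiosis. TAL-ADH arrays read 1.32 and 1.86 at 70 mM and 1.42 and 2.02 at 0 mM. TAL arrays read 1.12 and 0.97 at 70 mM and 1.17 and 1.07 at 0 mM, and control arrays 1.39 and 0.52 at 70 mM and 1.98 and 2.53 at 0 mM. The control strain without furfural had the highest mean. Among neighbouring groups in the order, only TAL-ADH at 70 mM and TAL at 0 mM did not overlap. That gap did not divide the arrays, since control at 70 mM, lower in the order, reached 1.39 against 1.32 on a TAL-ADH array at 70 mM. Control at 70 mM had both the lowest mean and the widest spread, 0.96 ± 0.61 (SD, n = 2).

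PGI1, the phosphoglucose isomerase that links glucose phosphate with fructose phosphate, read 4.89 and 5.15 in TAL-ADH at 70 mM and 4.20 and 4.97 at 0 mM. Its TAL levels were 3.20 and 3.77 at 70 mM and 2.99 and 3.71 at 0 mM, and its control levels 4.05 and 4.83 at 70 mM and 5.31 and 5.44 at 0 mM. The highest TAL array, at 3.77, was below the lowest array of the other strains, at 4.05, and control at 0 mM was above every other array.

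PFK1 encodes the alpha subunit and PFK2 the beta subunit of phosphofructokinase, the step that commits sugar to glycolysis. PFK1 was the steadiest member, with 2.66 and 2.68 in TAL-ADH at 70 mM, 2.66 and 2.69 in TAL-ADH at 0 mM, 1.81 and 2.04 in TAL at 70 mM and 1.94 and 2.23 in TAL at 0 mM. Control arrays read 2.37 and 2.72 at 70 mM and 2.90 and 3.00 at 0 mM. TAL-ADH gave nearly the same PFK1 level at both doses, TAL was low at both, and control at 0 mM was above every other array.

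PFK2 read 1.71 and 1.91 in TAL-ADH at 70 mM and 1.71 and 1.25 at 0 mM. TAL arrays read 0.59 and 0.79 at 70 mM and 1.19 and 1.64 at 0 mM, and control arrays 0.95 and 1.28 at 70 mM and 2.29 and 2.55 at 0 mM. Control at 0 mM stood apart at the top and TAL at 70 mM at the bottom. TAL-ADH at 0 mM, TAL at 0 mM and control at 70 mM overlapped in the middle.

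FBA1, the only fructose bisphosphate aldolase of this yeast, read 5.74 and 5.95 in TAL-ADH at 70 mM and 4.87 and 5.87 at 0 mM. TAL arrays read 4.19 and 4.47 at 70 mM and 3.91 and 4.81 at 0 mM, and control arrays 5.41 and 5.84 at 70 mM and 6.10 and 6.36 at 0 mM. Control at 0 mM was again above every other array, a position that was not counted over all genes. The gap below the other strains was narrow, with the highest TAL array at 4.81 and the lowest TAL-ADH array at 4.87.

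TPI1 read 5.20 and 5.44 in TAL-ADH at 70 mM and 4.70 and 5.42 at 0 mM. TAL arrays read 3.42 and 3.61 at 70 mM and 3.45 and 4.19 at 0 mM, and control arrays 4.33 and 4.16 at 70 mM and 5.80 and 6.10 at 0 mM. The arrays of TPI1 split into a high set of TAL-ADH and control without furfural, at 4.70 or above, and a low set of TAL and control with furfural, at 4.33 or below. These are the same sets of arrays as along the first principal component of all genes. The share of all genes with this split was not counted, and the split was seen in the values first.

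In the control strain, 4 of the 9 genes were lower with furfural and none was higher, by limma with Benjamini-Hochberg adjustment at 0.05. The 2 doses of this strain lie on different slides, so dose and slide cannot be told apart. Lower calls made up 21.5% of all 6083 genes in this comparison and higher calls 14%. HXK2 fell by 2.23 ± 0.57 (SE, 2 arrays against 2), a 4.69-fold drop with adjusted p = 0.0149, and TPI1 fell by 1.70 ± 0.32, 3.25-fold (adjusted p = 0.00375). PFK2 fell by 1.31 ± 0.26 (adjusted p = 0.00487) and EMI2 by 1.30 ± 0.35 (adjusted p = 0.0198).

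The other 5 members did not pass. PGI1 differed by -0.93 ± 0.38 (adjusted p = 0.085), FBA1 by -0.61 ± 0.39 (adjusted p = 0.248), PFK1 by -0.41 ± 0.21 (adjusted p = 0.164) and HXK1 by -0.39 ± 0.45 (adjusted p = 0.533). GLK1 was the 1 member with a positive difference, 0.47 ± 0.31 (adjusted p = 0.26). The median over the 9 members was -0.93, against -0.18 over all genes, and 7 of the 9 were below the 0 mM arrays on both 70 mM arrays, as were 42.6% of all genes.

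The calls of PFK2 and TPI1 held in all 20 alternatives, with adjusted p up to 0.0435 for PFK2 and 0.0342 for TPI1. HXK2 missed the threshold without either control 0 mM run or without control 70 mM run 2 (adjusted p from 0.0027 to 0.102 over the alternatives). EMI2 missed it without run 2 of control at either dose or with only the compared groups in the fit (0.00949 to 0.131), so the count was 2 without run 2 of either dose. Under quantile normalization 7 members were lower, with PGI1 at -1.34, FBA1 at -1.06 and PFK1 at -0.65. Of all 6083 genes, 985 were called lower in that fit, and the median of all genes was -0.0641. Refitting without the arrays labelled TAL 0 mM and TAL-ADH 70 mM left the 4 calls in place, with adjusted p from 0.00726 for TPI1 to 0.0380 for EMI2.

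**Figure D2:**
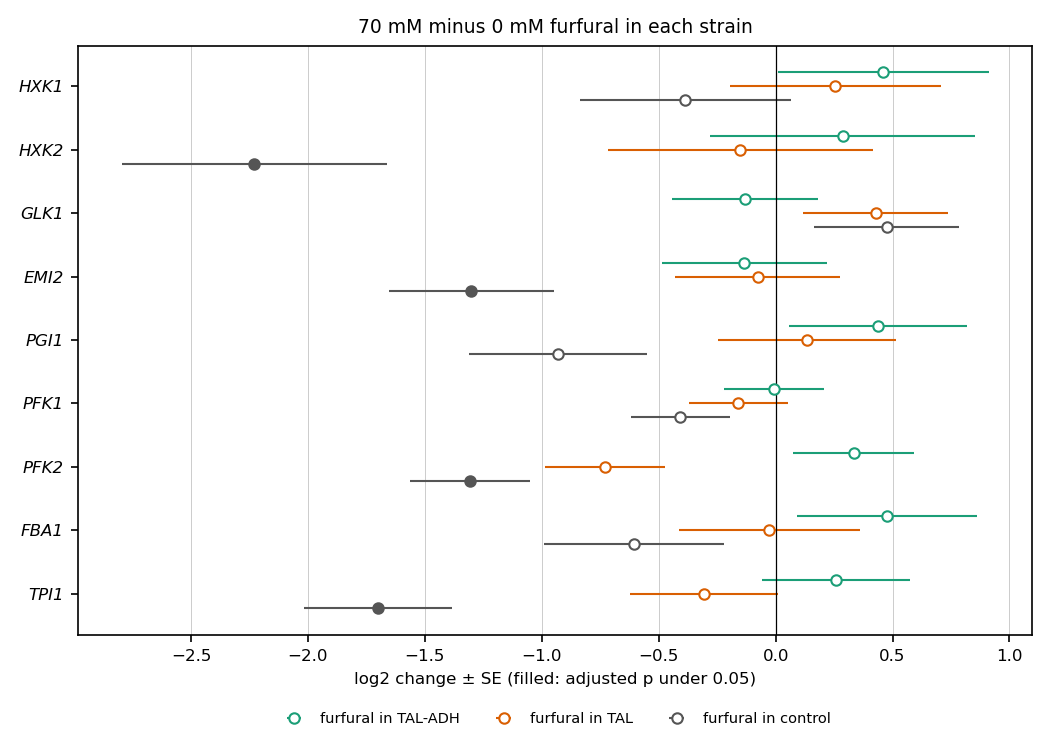
Log2 change at 70 mM against 0 mM furfural (x axis, point with SE, 2 arrays against 2) for each of the 9 genes (y axis) in the TAL-ADH, TAL and control strains, with filled points for adjusted p under 0.05. Only control points are filled, for HXK2 at -2.23, EMI2 at -1.30, PFK2 at -1.31 and TPI1 at -1.70, and whether the strains differ was tested separately.

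In the TAL strain none of the 9 genes passed, and 6 of 6083 genes did (0.0986%, 843 at an unadjusted p under 0.05). PFK2 came nearest, at -0.73 ± 0.26 (adjusted p = 0.256), with both 70 mM arrays below both 0 mM arrays. The other members lay between -0.31 for TPI1 and 0.43 for GLK1, and the member median of -0.08 equalled that of all genes to 2 decimals. Over all genes the count was 64 without either TAL-ADH 0 mM array, and 1 or 2 without a TAL array. In the TAL-ADH strain none passed either, where 2 of 6083 genes did (0.0329%, 213 unadjusted). There the members ran from -0.13 for EMI2 to 0.48 for FBA1, each with adjusted p = 0.999, with a median of 0.29 against -0.01 for all genes, and 46 genes passed without TAL-ADH 0 mM run 1.

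Over the 3 strains together, in a model additive in strain and furfural, no member and no other gene passed in limma (0%, 1381 genes at an unadjusted p under 0.05), and the members ran from -0.70 ± 0.45 for HXK2 to 0.26 ± 0.19 for GLK1. Without TAL-ADH 0 mM run 2, 432 genes passed, none of them a member. A slide term can be fitted in this model. With it HXK2 was at -1.79 ± 0.98 (adjusted p = 0.414), EMI2 at -1.36 ± 0.61 (0.302) and TPI1 at -1.14 ± 0.55 (0.342), still without a call, while 216 genes passed in all. HXK1 and GLK1 turned to -0.18 and -0.08 with the slide term.

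The furfural effect itself was compared between strains. In TAL-ADH minus control it was higher for 2 of the 9 genes, where 11.2% of all genes were called higher and 8.4% lower. TPI1 differed by 1.96 ± 0.45 (adjusted p = 0.0165), from changes of 0.26 in TAL-ADH and -1.70 in control, and PFK2 by 1.64 ± 0.36 (adjusted p = 0.0147), from 0.33 in TAL-ADH and -1.31 in control. HXK2 differed by 2.52 ± 0.80 without passing (adjusted p = 0.0557). In TAL minus control no member passed, against 10.2% of all genes called in either direction, although HXK2 differed by 2.08 ± 0.80 (adjusted p = 0.139) and TPI1 by 1.40 ± 0.45 (adjusted p = 0.0828). In TAL-ADH minus TAL no gene of the 6083 passed (0%, 406 unadjusted), and PFK2 differed by 1.06 ± 0.36 (adjusted p = 0.717). Without TAL-ADH 0 mM run 1, 58 genes passed there, and no member. These comparisons share their arrays, and the difference of PFK2 and of TPI1 between TAL-ADH and control missed the threshold without control 0 mM run 2 or TAL-ADH 70 mM run 2, up to adjusted p = 0.0652 for PFK2 and 0.0687 for TPI1. The count was 0 in both of those refits. Leaving out a control array at 70 mM gave 4 for run 1 and 1 for run 2.

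Without furfural, 8 of the 9 genes were lower in TAL than in the control strain and none was higher, where 13.5% of all genes were called lower and 14.9% higher. HXK2 was 7.26-fold lower (-2.86 ± 0.57, adjusted p = 0.00625) and TPI1 4.36-fold lower (-2.12 ± 0.32, adjusted p = 0.00148). PGI1 was at -2.02 ± 0.38 (adjusted p = 0.00497) and FBA1 at -1.87 ± 0.39 (adjusted p = 0.00751). Both phosphofructokinase subunits were lower, PFK1 at -0.87 ± 0.21 (adjusted p = 0.0158) and PFK2 at -1.002 ± 0.26 (adjusted p = 0.0193).

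HXK1 at -1.45 ± 0.45 (adjusted p = 0.0399) and EMI2 at -1.14 ± 0.35 (adjusted p = 0.0398) passed narrowly, and GLK1 at -0.69 ± 0.31 (adjusted p = 0.128) did not. All 9 members were below control on both TAL arrays, as were 33.8% of all genes, and the member median was -1.45 against 0.03 over all genes. No alternative left out both arrays labelled TAL 0 mM, which lay with the furfural-treated control, since this comparison needs them. HXK2, PGI1 and TPI1 kept the call in all 19 alternatives, with adjusted p up to 0.0444 for HXK2, 0.0375 for PGI1 and 0.0178 for TPI1. Leaving out run 2 of control at 0 mM brought the 8 down to 3, leaving out its run 1 to 5, and leaving out run 1 of TAL at 0 mM to 4.

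With furfural in both, TAL against control gave no call among the 9, and 5 of 6083 genes passed (0.0822%, 984 unadjusted). The differences ran from -1.29 ± 0.39 for FBA1 (adjusted p = 0.168) to 0.09 ± 0.35 for EMI2, with a median of -0.74 against 0.02 over all genes. On both TAL arrays 7 of the 9 members were below both control arrays, as were 18.3% of all genes. Both groups lay on 1 slide, and a fit without the arrays of TAL 0 mM and TAL-ADH 70 mM gave no call either (FBA1 adjusted p = 0.293). With the run as a replicate block, FBA1 (adjusted p = 0.0266) and PGI1 (0.0394) were called lower, and 357 genes passed in all. The labels do not say that a run number marks a shared batch. Over all genes 44 passed without control 70 mM run 1, none without its run 2, and 1 or 2 without any other single array.

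**Figure D3:**
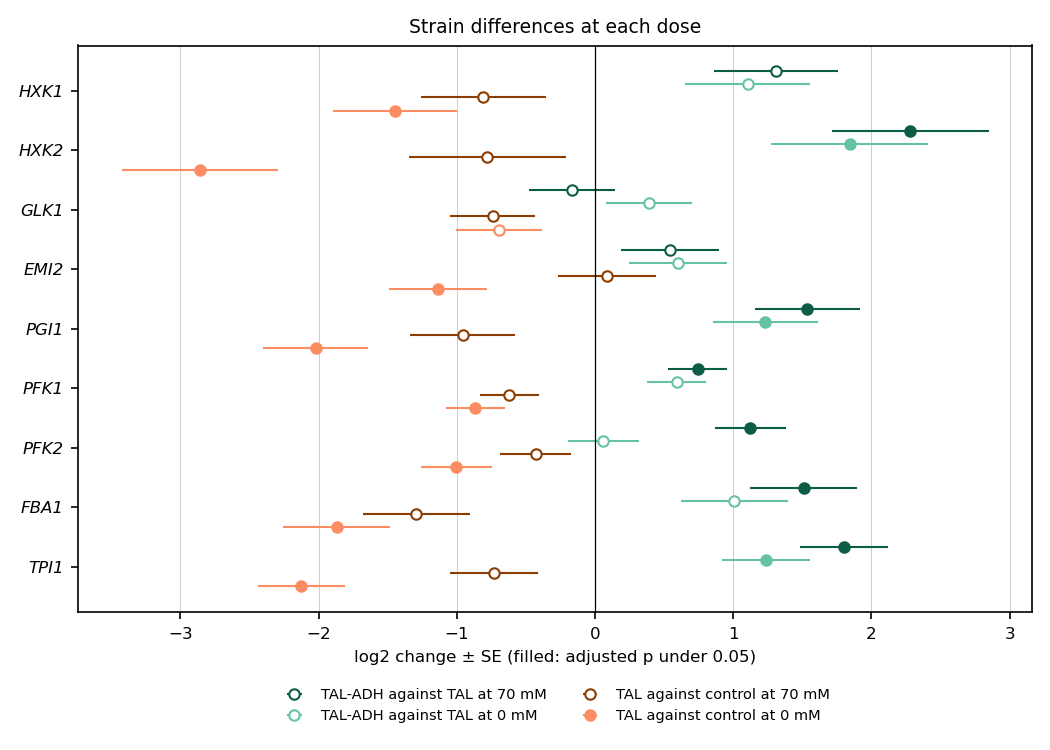
Log2 difference between strains at 70 and 0 mM furfural (x axis, point with SE, 2 arrays against 2) for each of the 9 genes (y axis), with filled points for adjusted p under 0.05. The 8 filled points left of 0 are TAL against control at 0 mM, and the filled points right of 0 are TAL-ADH against TAL, 6 at 70 mM and 3 at 0 mM.

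In TAL-ADH against TAL at 70 mM, 6 of the 9 were higher and none lower, where 18% of all genes were called higher and 13.9% lower. HXK2 was 4.86-fold higher (2.28 ± 0.57, adjusted p = 0.0149) and TPI1 3.49-fold higher (1.80 ± 0.32, adjusted p = 0.00278). PGI1 at 1.54 ± 0.38 (adjusted p = 0.0148), FBA1 at 1.51 ± 0.39 (0.0167), PFK2 at 1.12 ± 0.26 (0.0103) and PFK1 at 0.74 ± 0.21 (0.0266) also passed. HXK1 at 1.31 ± 0.45 missed (adjusted p = 0.0525), as did EMI2 at 0.54 ± 0.35 and GLK1 at -0.17 ± 0.31. The median was 1.31, against 0.10 over all genes, 8 members were above TAL on both TAL-ADH arrays as were 40% of all genes, and the count was 1 without TAL-ADH 70 mM run 2, 2 without TAL 70 mM run 1 and 3 without TAL 70 mM run 2.

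At 0 mM, where both strains shared a slide, 3 of the 9 were higher in TAL-ADH and none lower, against 12.7% of all genes called higher and 13% lower. TPI1 was at 1.24 ± 0.32 (adjusted p = 0.0207), HXK2 at 1.84 ± 0.57 (adjusted p = 0.0413) and PGI1 at 1.23 ± 0.38 (adjusted p = 0.042). PFK2 stood at 0.06 ± 0.26, the 1 member whose arrays overlapped between the strains, while 8 were above TAL on both arrays, as were 31.2% of all genes. The median was 1.01, against 0.04 over all genes. With only the compared groups in the fit no member passed, and the count was 0 without TAL-ADH 0 mM run 2 and 1 without either TAL 0 mM run, either control 0 mM run or either TAL-ADH 70 mM run.

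TAL-ADH against control gave no call among the 9 at 0 mM, where 1 of 6083 genes passed (0.0164%, 429 unadjusted). All 9 differences were negative there, from -1.02 ± 0.57 for HXK2 to -0.28 ± 0.21 for PFK1, with a median of -0.79 against 0.02 over all genes, and 6 members were below control on both TAL-ADH arrays as were 17.7% of all genes. Without TAL-ADH 0 mM run 1, 62 genes passed, none of them a member. The sign of HXK1 is not settled, at -0.34 ± 0.45 and at 0.03 under quantile normalization. At 70 mM 1 member was higher and 1 lower, against 22.5% and 14.1% of all genes: TPI1 at 1.07 ± 0.32 (adjusted p = 0.027) and GLK1 at -0.91 ± 0.31 (adjusted p = 0.0465). The median was 0.58, against 0.20 over all genes. Under quantile normalization, given next for the members, 1029 of 6083 genes were called higher and 837 lower. No member passed without control 70 mM run 2 or either TAL-ADH 70 mM run, and under quantile normalization 5 were higher and GLK1 no longer passed (-0.45, adjusted p = 0.139, with 0.00429 to 0.212 over the alternatives).

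Pairs of genes that serve the same or neighbouring steps did not move by equal amounts. Differences between 2 genes on 1 array do not depend on the percentile subtracted from that array, though quantile normalization can change them. They show unequal change, not which gene changed. Relative to the control strain at 0 mM, HXK1 minus HXK2 was 1.15 and 2.54 in control at 70 mM, GLK1 minus EMI2 was 1.13 and 2.42, PFK1 minus PFK2 was 0.88 and 0.92, and FBA1 minus TPI1 was 0.80 and 1.39. In each pair the first gene gave more signal relative to the second with furfural, by 1.84 ± 0.76, 1.78 ± 0.38, 0.90 ± 0.22 and 1.096 ± 0.23 (SE). No p is given, since the pairs were formed with results of these data known.

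The same pairs were set side by side for TAL and control at 0 mM, with no test between the contrasts. HXK1 minus HXK2 was shifted by 1.41 ± 0.76, GLK1 minus EMI2 by 0.44 ± 0.38, PFK1 minus PFK2 by 0.14 ± 0.22 and FBA1 minus TPI1 by 0.25 ± 0.23. Control at 0 mM is in both contrasts. PFK1 minus PFK2 was at 0.69 and 0.72 in TAL at 70 mM, 0.21 and 0.06 in TAL at 0 mM and 0.42 and 0.24 in TAL-ADH at 70 mM, though 0.43 and 0.91 in TAL-ADH at 0 mM.

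**Figure D4:**
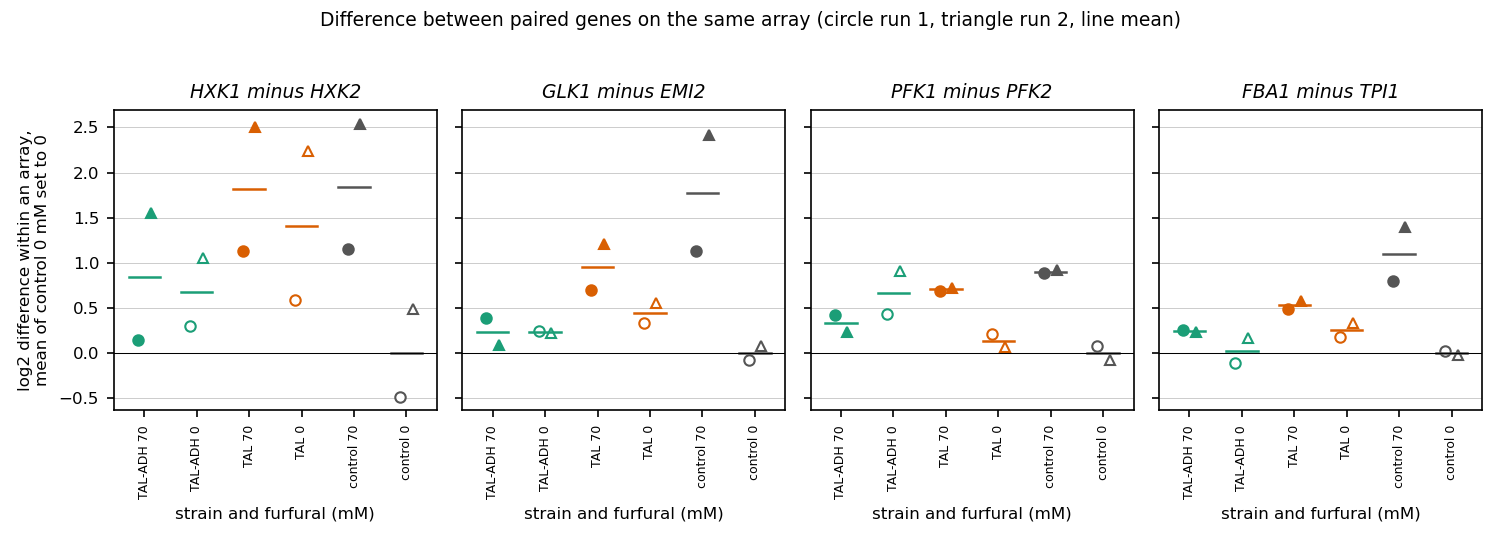
Log2 difference between 2 genes on the same array, with the mean of control at 0 mM set to 0 (y axis), by strain and furfural dose in mM (x axis), with circles for run 1, triangles for run 2, filled symbols for 70 mM and lines for group means. Control at 70 mM is above control at 0 mM on both arrays in all 4 panels.

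Other genes of the pathway were counted from lists chosen by function. Of the 11 lower glycolysis genes, which carry triose phosphate on to pyruvate, 9 were lower with furfural in the control strain and none higher, beside 21.5% of all genes lower and 14% higher, with a median of -1.90, and the count was 5 without control 0 mM run 2. TDH2, a glyceraldehyde phosphate dehydrogenase, was at -3.04 ± 0.35, the enolase gene ENO1 at -2.67 ± 0.43 and the phosphoglycerate kinase gene PGK1 at -2.63 ± 0.33. The same count, 9 lower of 11, was found for TAL against control at 0 mM, beside 13.5% of all genes lower, with a median of -2.13, and both contrasts use the control arrays at 0 mM. TDH2 averaged 2.00 ± 0.15 and 1.78 ± 0.39 in TAL-ADH at 70 and 0 mM, -1.05 ± 0.20 and -0.02 ± 0.61 in TAL, and 0.33 ± 0.26 and 3.37 ± 0.45 in control (SD, n = 2).

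Of 6 enzymes at the branch points of the upper pathway, 2 were higher with furfural in the control strain and none lower, beside the same 14% and 21.5% of all genes. ZWF1, which draws glucose phosphate into the pentose phosphate pathway, rose by 1.69 ± 0.29 and TPS1, the trehalose phosphate synthase, by 1.099 ± 0.23, a call that was lost without control 0 mM run 1. ZWF1 was also the 1 branch point gene called for TAL against control at 0 mM (1.98 ± 0.29, adjusted p = 0.00129). In that contrast 14.9% of all genes were called higher and 13.5% lower. Its group means were 0.65 ± 0.16 and 0.12 ± 0.00002 in TAL-ADH at 70 and 0 mM, 2.53 ± 0.41 and 2.31 ± 0.36 in TAL, and 2.02 ± 0.29 and 0.33 ± 0.28 in control.

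Of the enzymes that act on fructose phosphates at the phosphofructokinase step, PFK26, PFK27 and FBP26 make or remove its activator and FBP1 runs the step in reverse. These 4 genes gave no call in either contrast, and neither did YLR446W, a hexokinase relative. Of 7 genes of glucose sensing and repression, 4 were higher and 1 lower with furfural in control (14% and 21.5% of all genes), with MTH1 at 2.12 ± 0.44, RGT1 at 1.27 ± 0.37 (adjusted p = 0.0267) and MIG1 at 1.12 ± 0.39 (adjusted p = 0.0497). The 5 calls fell to 1 without control 0 mM run 1 or control 70 mM run 2, and to 2 without control 0 mM run 2. MTH1 and RGT1 encode repressors of the hexose transporter genes, and MIG1 a repressor of glucose-repressed genes. MTH1 was the 1 gene of this list called for TAL against control at 0 mM, at 1.45 ± 0.44 (adjusted p = 0.036). In that contrast 14.9% of all genes were called higher and 13.5% lower. The call of MTH1 was lost without any 1 of the control 0 mM, TAL 0 mM or TAL-ADH 70 mM arrays. Among 4 glycolytic transcription factors, TYE7 was at 1.06 ± 0.35 (adjusted p = 0.0426) and GCR1, an activator of glycolytic genes, at -0.77 ± 0.24 (adjusted p = 0.0328) with furfural in control, and GCR1 at -0.93 ± 0.24 for TAL against control at 0 mM. The furfural calls of TYE7, MIG1, GCR1 and RGT1 were lost in 10, 8, 4 and 3 of the 12 refits that leave out an array, and neither factor nor RGT1 passed without the arrays of TAL 0 mM and TAL-ADH 70 mM. The call of GCR1 for TAL against control at 0 mM was lost without either control 0 mM run or TAL 0 mM run 1.

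Among themselves the 9 genes varied together over the 12 arrays to unequal degrees. Pearson's r ran from 0.00390 to 0.974 over the 36 pairs of members. All 6 pairs among PGI1, PFK1, FBA1 and TPI1 had r of 0.894 or more, while the 8 pairs with GLK1 stayed at 0.547 or less, and HXK1 with HXK2 had r = 0.661. These values describe 12 arrays that fall into 6 and 6 along the first component and share that division, so no p is given. On deviations from group means the picture changed. The same 6 pairs then ran from 0.432 (PFK1 with TPI1) to 0.927 (PGI1 with FBA1). The pairs with GLK1 ran from -0.432 (HXK2) to 0.835 (HXK1), and those with HXK2 from -0.924 (PFK1) to 0.395 (EMI2). With 2 runs per group, each of these r rests on 1 run difference in each of the 6 groups. Run 2 was above run 1 in all 6 groups for GLK1, PGI1, PFK1 and FBA1. It was above in 5 for HXK1, PFK2 and TPI1, in 3 for EMI2 and in 2 for HXK2. Whether a run effect shared between groups enters these r was not tested.

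The gene outside the 9 with the pattern most like each member, by Pearson's r over 12 arrays among 5789 genes detected on all of them, was a glycolytic or fermentative gene for 3 members under the main scaling, and for 1 of these 3, FBA1, under quantile normalization. Each r given here is the highest of 5789, over arrays that fall into 6 and 6 along the first component. The share of glycolytic or fermentative genes among the 5789 was not counted. TPI1 was nearest to TDH2 (r = 0.983), FBA1 to TDH1, another glyceraldehyde phosphate dehydrogenase (0.968), and PGI1 to the pyruvate decarboxylase gene PDC1 (0.966). HXK2 was nearest to RPP1A, a ribosomal stalk protein gene (0.982). TDH1 stayed the nearest gene to FBA1 under both normexp background correction and quantile normalization, while RPP1A was nearest to HXK2 under quantile normalization and at rank 2 under normexp. The nearest gene was UTH1 for HXK1 (0.957), BNA5 for GLK1 (0.942), FDC1 for EMI2 (0.947), PRS5 for PFK2 (0.957) and YPR071W for PFK1 (0.956). Most of these nearest genes changed under quantile normalization. Normexp kept TDH2, PDC1, UTH1, FDC1 and BNA5 nearest, with PRS5 at rank 3. Under quantile normalization TDH2 was at rank 104 for TPI1 (r = 0.944), where PMI40 was nearest. PDC1 was at rank 19 for PGI1 (0.958), where ROT1 was nearest. UTH1 was at 19 for HXK1 (0.920), PRS5 at 22 for PFK2 (0.906), FDC1 at 8 for EMI2 (0.920) and BNA5 at 3 for GLK1 (0.812). YPR071W was at rank 432 for PFK1 under normexp (0.752) and 1648 under quantile normalization (0.534).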

How the data were processed

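Expression was measured in 12 samples, each on 1 single-colour Agilent array with Cy3-labelled RNA. The deposited scanner files, per the file headers, give spot intensity that Agilent Feature Extraction 10.1.1.1 (named in the submitters' processing notes) had background-subtracted, without scaling between arrays. The authors' own deposited values are log2, with column medians from -0.170 to 0.0577. Set against scanner values centred per probe, they correlated at 0.999995 or more on each array, so the centring per probe is read from the values. They served as an alternative.

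Levels here are log2 processed intensity averaged over unmarked spots of a probe, minus the array's 75th percentile over gene probes (2529 to 7414 intensity units). To be kept, a gene needed over 50% of spots flagged well above background on both arrays of at least 1 group: 6083 of 6256 genes, with 173 left out as dim. Names come from the RefSeq gene table, which matched 5756 probes. The build of the array design is not given in the sources used here, so no coordinates are printed. The limma package (3.58.1, R 4.3.3, data.table package 1.17.8, jsonlite 2.0.0) fitted every gene on 6 group means with 6 residual degrees of freedom (prior SD 0.294, prior degrees of freedom 3.11), or additively in strain and furfural with 8. Calls are Benjamini-Hochberg adjusted p under 0.05 over 6083 genes in each of 13 comparisons, and the number of arrays limits the precision (median SE of a difference 0.309). The scripts were tested on simulated data.

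Alternatives were normexp (offset 50) on the median spot and background signals, since the files hold no mean signal, quantile normalization, no filter, outlier spots kept, the authors' table, only the compared groups, run as a block, the slide, each array left out, and the arrays of TAL 0 mM and TAL-ADH 70 mM left out.

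The 9 members and the other lists were chosen with earlier results of these data known. All members are described in every group. Of the other lists, counts are given for furfural in control and for TAL against control at 0 mM, and at most the 3 called genes of largest change in the first are named. The likest gene to each member, and TAL1, are also named.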

Additional observations from a re-analysis of the deposited data

Results flagged for a closer look

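The furfural effect of 2 of the 9 genes differed between TAL-ADH and the control strain by a test of the difference itself. Over all genes 11.2% were called higher and 8.4% lower in this comparison. Neither of the 2 calls held in every alternative. For PFK2 the difference was 1.64 ± 0.36 log2 (SE, adjusted p = 0.0147), with changes of 0.33 in TAL-ADH and -1.31 in control. For TPI1 it was 1.96 ± 0.45 (adjusted p = 0.0165), with changes of 0.26 in TAL-ADH and -1.70 in control. The 4 groups lie on 3 slides, and slide and group cannot be told apart in these differences.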

How the results depend on the processing

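The 9 genes gave 117 results over the 13 comparisons, and 25 of them passed the test. None of the 25 changed sign in any alternative, and 6 kept the call in every one: PFK2 and TPI1 for furfural in control, HXK2, PGI1 and TPI1 for TAL against control at 0 mM, and TPI1 for TAL-ADH against TAL at 70 mM. Of the others, 22 results gained a call in at least 1 alternative. The refit without the arrays of TAL 0 mM and TAL-ADH 70 mM could be run only where neither group was compared. It covered the furfural calls in control, but not those for TAL against control at 0 mM or TAL-ADH against TAL at 70 mM. Background correction, the filter, the outlier spots and the authors' table moved no count of members by over 1.5 times. Under quantile normalization the count was 7 for furfural in control, 5 for TAL-ADH against TAL at 0 mM, 5 for TAL-ADH against control at 70 mM and 2 for the furfural effect in TAL minus control. Over all genes quantile normalization gave 1784, 1820, 1866 and 624 calls in these comparisons, in the same order. The reported fit gave 2156, 1566, 2226 and 622. With only the compared groups in the fit the count of members was 0 for TAL-ADH against TAL at 0 mM (651 of all genes, against 1566). It was 1 for TAL-ADH against control at 70 mM (1591 of all genes, against 2226). The cause was not tested. Over all genes, normexp gave 1 call for furfural in TAL (6 in the reported fit), 0 for furfural in TAL-ADH (2), 0 for TAL-ADH against control at 0 mM (1) and 2 for TAL against control at 70 mM (5), where quantile normalization gave 12, with 1 for furfural in TAL-ADH and 0 for TAL-ADH against control at 0 mM. A fit of only the compared groups gave 0 in these 4 comparisons, and the slide term gave 216 for furfural over the 3 strains (0). Quantile normalization moved the median change of all genes by 0.12 for furfural in control and by -0.16 for TAL-ADH against control at 70 mM, and normexp moved it by 0.14 for furfural in TAL, 0.15 for TAL against control at 70 mM, -0.14 for TAL-ADH against TAL at 70 mM, and 0.16 and -0.15 for the furfural effect in TAL minus control and TAL-ADH minus TAL.

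Leaving out 1 array at a time gave counts of 2 to 4 for furfural in control, 3 to 8 for TAL against control at 0 mM, 0 to 3 for TAL-ADH against TAL at 0 mM, 0 to 2 for TAL-ADH against control at 70 mM, 1 to 7 for TAL-ADH against TAL at 70 mM and 0 to 4 for the furfural effect in TAL-ADH minus control. It was 0 throughout in the other comparisons. Over all genes the counts ran from 1111 to 2267 for furfural in control (2156 with all arrays), 759 to 1857 for TAL against control at 0 mM (1728), 723 to 1626 for TAL-ADH against TAL at 0 mM (1566), 1136 to 2321 for TAL-ADH against control at 70 mM (2226), 951 to 2052 for TAL-ADH against TAL at 70 mM (1940), 282 to 792 for the furfural effect in TAL minus control (622) and 513 to 1350 in TAL-ADH minus control (1194). They ran from 1 to 64 for furfural in TAL (6), 0 to 46 for furfural in TAL-ADH (2), 0 to 432 for furfural over the 3 strains (0), 0 to 62 for TAL-ADH against control at 0 mM (1), 0 to 44 for TAL against control at 70 mM (5) and 0 to 58 for the furfural effect in TAL-ADH minus TAL (0).

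The run numbers are shared between groups, and run differences correlated between groups at 0.0435 to 0.861, over 0.1 in 14 of 15 pairs of groups, a hint from the data of a shared run effect. The labels do not say that a number marks a shared batch and 1 pair of groups was under 0.1, so the fits were kept without the block. With the run as a replicate block the count of members was 6 for TAL-ADH against TAL at 0 mM, 2 for TAL against control at 70 mM (FBA1 at -1.29, adjusted p = 0.0266, and PGI1 at -0.96, adjusted p = 0.0394, both lower), 5 for TAL-ADH against control at 70 mM, and 3 and 5 for the furfural effect in TAL minus control and TAL-ADH minus control. Over all genes the block gave 55 calls for furfural in TAL (6 without it), 2608 for TAL against control at 0 mM (1728), 2499 for TAL-ADH against TAL at 0 mM (1566), 357 for TAL against control at 70 mM (5), and 1351 (622) and 2210 (1194) for those 2 differences in the furfural effect.

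The sign changed for 27 results, none with a call. Quantile normalization gave -0.12 for TPI1 with furfural in TAL-ADH, -0.11 for HXK1 with furfural over the 3 strains, 0.0270 for HXK1 in TAL-ADH against control at 0 mM and 0.23 for GLK1 in the furfural effect in TAL minus control. The slide term gave -0.0846 for GLK1 and -0.180 for HXK1 with furfural over the 3 strains. Without 1 array, furfural in control gave -0.94 to 0.17 for HXK1. Furfural in TAL gave -0.48 to 0.42 for FBA1, -0.87 to 0.56 for HXK2, -0.22 to 0.49 for PGI1 and -0.68 to 0.0634 for TPI1. Furfural in TAL-ADH gave -0.43 to 0.17 for EMI2, -0.0257 to 0.98 for FBA1, -0.42 to 0.16 for GLK1, -0.0845 to 1.01 for HXK1, -0.0188 to 0.00484 for PFK1 and -0.10 to 0.62 for TPI1. Furfural over the 3 strains gave -0.24 to 0.0700 for FBA1, -0.0702 to 0.31 for HXK1 and -0.29 to 0.0777 for PGI1. TAL-ADH against control at 0 mM gave -0.66 to 0.0494 for GLK1 and -0.90 to 0.21 for HXK1, and TAL-ADH against TAL at 0 mM -0.17 to 0.29 for PFK2. TAL against control at 70 mM gave -0.35 to 0.52 for EMI2, TAL-ADH against control at 70 mM -0.0427 to 1.05 for HXK1 and -0.0539 to 0.30 for PFK1, and TAL-ADH against TAL at 70 mM -0.35 to 0.0110 for GLK1. The furfural effect gave -0.40 to 0.31 for GLK1 in TAL minus control, and in TAL-ADH minus TAL -0.36 to 0.24 for EMI2, -0.34 to 0.75 for HXK1, -0.28 to 1.15 for HXK2 and -0.0787 to 0.69 for PGI1.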
